A study of Homo sapiens with 6 samples.

Results

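Cells carrying the hairpin shS100A10_5 were compared with cells carrying the hairpin shS100A10_1, 2 short hairpin RNAs aimed at the same gene, S100A10. The comparison took the 2 arrays of each hairpin by their titles, 4 of the 6 arrays of the study, and left the control arrays out of the test. All cells were MDA-MB-231, an established human breast cancer cell line of the triple-negative, mesenchymal type, transduced with lentivirus and grown in RPMI medium with 10% serum and puromycin at 2.5 µg/ml. The control group, shNCT, was listed as control and also held 2 arrays, and its values are given beside the hairpin values only as a description. Total RNA was hybridised to whole-transcript arrays, and the values are the deposited normalized intensities, converted here to log2.

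The product of S100A10 is p11, an S100 protein that forms a complex with annexin A2 under the plasma membrane. The complex binds plasminogen and its activators at the cell surface, and p11 also carries several ion channels and receptors to the membrane. A short hairpin RNA is processed into a small duplex whose guide strand leads the RNA-induced silencing complex to matching messenger RNAs. A guide strand can also pair with other transcripts through its seed, and different hairpins to one gene have different seeds. The sequences of both hairpins are not given here.

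The table held 16965 probe sets, of which 15674 carried 1 gene symbol. The arrays had median intensities of 232 to 238, and no 2 were identical. The SD of the log2 difference between replicates was 0.292 for shS100A10_1 and 0.360 for shS100A10_5, and 32 and 52 probe sets respectively differed by at least 2-fold between replicates. On the first principal component of the 4 arrays, with 60.0% of the variance, the shS100A10_1 arrays lay at -27.3 and -20.2 and the shS100A10_5 arrays at 13.1 and 34.4, so replicate 2 of shS100A10_5 lay farther from the other hairpin than replicate 1 did. The labels do not state whether the replicates are separate cultures; the p-values therefore cover only the spread seen among these arrays, which could be technical, and the small number of arrays limits the precision. Of 14 measured basal markers of this line, 1 was below the lower quartile of all probe sets. Among the others, VIM, CD44, EGFR and AXL had mean log2 levels of 11.29 or more on the shS100A10_5 arrays. Of 12 measured luminal markers 4 were below 5.00, the lower quartile of all probe sets, among them CDH1 (3.68), FOXA1 (4.88) and TFF3 (4.59). The others were above it, SPDEF (8.57) and AGR2 (6.81) among them, and the summed luminal intensity was 17790 and 15980 with shS100A10_1 and 14680 and 11770 with shS100A10_5. The summed intensity of 11 leukocyte markers, most of it CD68, was 8454 and 7997 with shS100A10_1 and 6487 and 5059 with shS100A10_5, and that of 9 endothelial and fibroblast markers lay between 1065 and 1362; their part in the results was not tested. In RNA from whole cultures, fewer cells of a kind and less RNA per cell cannot be told apart.

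The hairpins left different amounts of their target. S100A10 intensity was 1969 and 1545 with shS100A10_1 and 13565 and 9461 with shS100A10_5, against 88860 and 92938 with the control hairpin. All hairpin arrays were far below the controls, and the hairpin groups did not overlap. The level was 13.47 ± 0.37 with shS100A10_5 and 10.77 ± 0.25 with shS100A10_1 (log2, SD, n = 2 each), a difference of 2.70 with a 95% confidence interval of 2.18 to 3.21 (6.49-fold; limma, adjusted p = 0.00223). The amount of S100A10 left and the identity of the hairpin change together here, and what follows from either cannot be told apart. ANXA2, the annexin partner of p11, differed by -0.01 with an interval of -0.43 to 0.41 (limma, adjusted p = 0.983).

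Across the transcriptome, 291 of 16965 probe sets (1.72%) differed between the hairpins at a limma adjusted p under 0.05, 143 higher (0.843%) and 148 lower (0.872%) with shS100A10_5. Of these, 270 carried a gene symbol, 133 higher and 137 lower, and 231 differed by at least 2-fold. The hairpin arrays of all 270 did not overlap, as was the case for 49% of all probe sets. The smallest difference that passed was 0.88 on the log2 scale. At an unadjusted p under 0.05 there were 3008 probe sets (17.7%), against 848 that chance would give if none differed. The prior degrees of freedom, the weight that limma gives to the spread shared over probe sets, changed with the array left out of the fit of 4. They were infinite without a shS100A10_1 array and 5.19 without a shS100A10_5 array. Counts are therefore not comparable between the hairpins, and they were lowest without an array of shS100A10_5. Without replicate 1 of that hairpin 10 probe sets passed, and without replicate 2 it was 0 by limma, with 2504 at an unadjusted p under 0.05; such a fit assumes that the lone array varies like the other hairpin's. With the control arrays added to the fit to estimate the spread, 494 passed, 656 without shS100A10_5 replicate 1 and 7 without its replicate 2, and 83 and 131 without shS100A10_1 replicates 1 and 2. Those 7 were S100A10, SNAI1, MAP3K13, CST7, NR1D1 and ID2, higher, and OASL, lower. Of the 68 genes past the threshold that are named here, 56 and 51 passed in the fit of 4 arrays without shS100A10_1 replicates 1 and 2, and 10 and 0 without shS100A10_5 replicates 1 and 2. The 7 that passed in none of these 4 fits were H2BC17, GCLM, SQSTM1, JUNB, FASN, SPRY2 and E2F1. All 291 kept their sign in every one of these fits, as they had to where the arrays did not overlap.

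**Figure D1:**
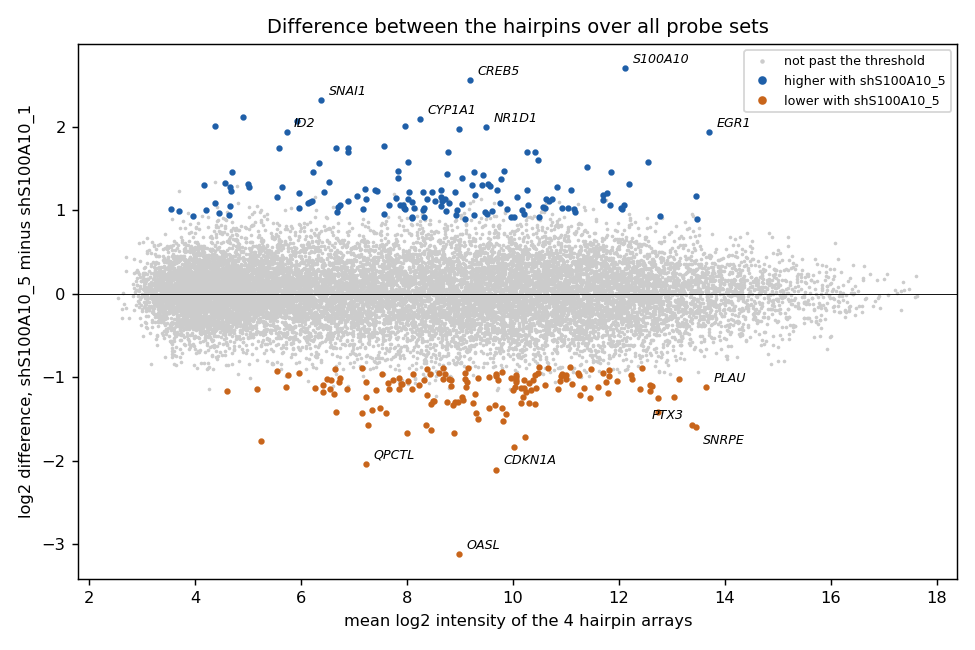
Difference between the hairpins (log2, shS100A10_5 minus shS100A10_1) against the mean log2 intensity of the 4 hairpin arrays, 1 point per probe set. The 143 probe sets higher with shS100A10_5 (blue) and the 148 lower (orange) lie at all but the brightest levels, with S100A10 and OASL at the extremes.

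Apart from S100A10 itself, the largest difference toward shS100A10_5 was that of CREB5. CREB5, a factor of the cAMP response element binding family, had intensities of 205 and 282 with shS100A10_1 and 1015 and 1980 with shS100A10_5, against 383 and 534 in the controls (log2 difference 2.56, SE 0.30; limma, adjusted p = 0.00764). Its control arrays lay between the hairpins, with no overlap on either side. SNAI1, the zinc finger repressor of E-cadherin, read 37.5 and 37.3 with shS100A10_1, 162 and 213 with shS100A10_5, and 60.4 and 50.5 in the controls (2.31, SE 0.20; limma, adjusted p = 0.00223). Its replicates were close in both hairpins, and the controls were again between them but near shS100A10_1. MAP3K13, a kinase upstream of JNK, read 30.1 and 29.5 against 115 and 134, with controls at 35.7 and 31.2 (2.06, SE 0.19; limma, adjusted p = 0.00223). CYP1A1, a cytochrome P450 that the aryl hydrocarbon receptor induces, read 164 and 132 against 551 and 715, with controls at 220 and 175 (2.09, SE 0.21; limma, adjusted p = 0.00344). For both genes the control level was close to that of shS100A10_1, and the shS100A10_5 arrays stood apart. A different order was seen in LCTL, a klotho family gene (10.1 and 20.4 against 74.99 and 51.5, controls 57.6 and 57.9), CST7, which encodes cystatin F (108 and 142 against 641 and 384, controls 421 and 427), and S1PR1, a sphingosine-1-phosphate receptor (46.4 and 66.2 against 183 and 189, controls 189 and 172). In these genes the shS100A10_1 arrays lay apart and the controls lay among or close to the shS100A10_5 arrays. Their differences were 2.11, 2.002 and 1.75, with limma adjusted p of 0.0154, 0.00893 and 0.00826. The imprinted gene MEST (1.97), the arrestin-domain gene ARRDC4 (1.74) and SLITRK6, a transmembrane protein of neurons (1.74), had limma adjusted p between 0.00834 and 0.0233. Their controls were placed otherwise. The MEST controls, 760 and 495, lay between the hairpins without overlap. The ARRDC4 controls, 91.8 and 47.7, overlapped shS100A10_1, whose replicates were far apart at 45.9 and 91.2. The SLITRK6 controls, 12.2 and 15.3, lay below both hairpins.

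The largest differences toward shS100A10_1 were led by OASL, an interferon-induced protein related to oligoadenylate synthetase, at 1440 and 1543 with shS100A10_1 against 193 and 152 with shS100A10_5. Its control arrays, 275 and 252, were above shS100A10_5 and far below shS100A10_1, and the difference was -3.12 (SE 0.20; limma, adjusted p = 0.000379). CDKN1A, which encodes the cell cycle inhibitor p21, read 1974 and 1475 against 456 and 345, with controls at 1130 and 1218 (-2.11, SE 0.23; limma, adjusted p = 0.00467). The controls again lay between the hairpins without overlap. PTX3, a secreted pentraxin of innate immunity, read 17490 and 19113 against 6341 and 5980, with controls at 7745 and 6392 (-1.57, SE 0.19; limma, adjusted p = 0.00767), so that they lay just above shS100A10_5. TNFSF15, which encodes the cytokine TL1A, read 1647 and 1408 against 535 and 528, but 237 and 267 in the controls (-1.52, SE 0.19; limma, adjusted p = 0.00834). For TNFSF15 both hairpins were above the controls and shS100A10_1 further so.

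In QPCTL, SNRPE and CDC26, also lower, the shS100A10_5 arrays were the ones away from the controls. QPCTL, the Golgi glutaminyl cyclase that forms pyroglutamate at protein ends, read 318 and 287 with shS100A10_1, 78.2 and 69.4 with shS100A10_5, and 293 and 373 in the controls (-2.03, SE 0.19; limma, adjusted p = 0.00223). SNRPE, a core Sm protein of the spliceosome, read 18777 and 20452 against 6931 and 6026, with controls at 16302 and 14019 (-1.60, SE 0.19; limma, adjusted p = 0.00767). CDC26, a subunit of the anaphase-promoting complex, read 1480 and 1598 against 595 and 537, with controls at 1696 and 1436 (-1.44, SE 0.19; limma, adjusted p = 0.00893). In these genes the shS100A10_1 arrays were at the control level or, for SNRPE, above it. BTD, which encodes biotinidase (-1.72), MIF4GD, a factor in the translation of histone messengers (-1.57), CMTM3 (-1.63), ADGRF1, an adhesion G protein-coupled receptor (-1.58), DHRS11 (-1.50), FAM24B (-1.67) and CD180, a Toll-like receptor homolog (-1.77), had limma adjusted p between 0.00764 and 0.0233. FAM24B read 788 and 905 against 294 and 240, with controls at 412 and 317, and CD180 read 64.5 and 75.04 against 17.5 and 23.8, with controls at 30.3 and 22.8. In FAM24B and CD180 the controls lay nearer shS100A10_5.

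**Figure D2:**
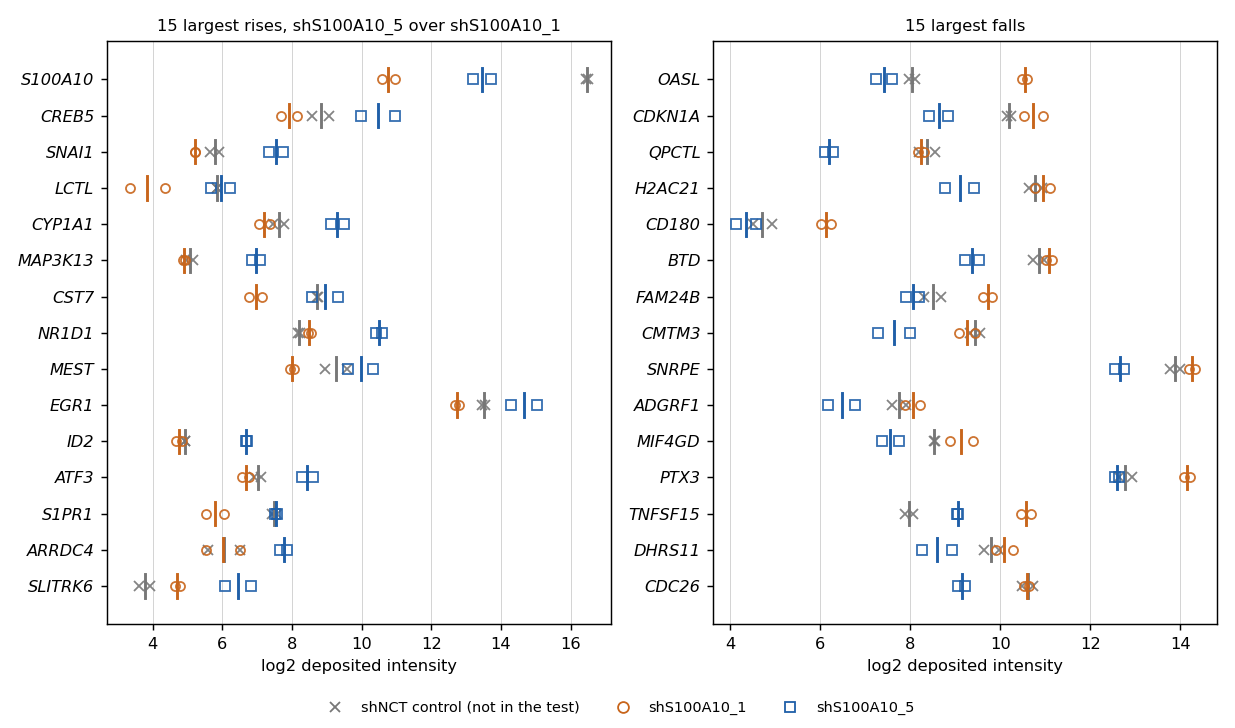
Log2 deposited intensity on each array for the 15 largest rises (left) and 15 largest falls (right) of shS100A10_5 over shS100A10_1 that passed the threshold; circles are shS100A10_1, squares shS100A10_5, crosses the control, and vertical bars group means. The hairpin arrays do not overlap for any gene shown, and the control lies between the hairpins for genes such as CREB5 and CDKN1A but next to 1 hairpin for others such as QPCTL and NR1D1.

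The controls, which were not in the test, place the differences. Of the 143 probe sets higher with shS100A10_5, 125 had both shS100A10_5 arrays above both controls and 92 had both shS100A10_1 arrays below them; 74 had both, so that the hairpins lay on opposite sides of the control. Of all 16965 probe sets, 520 (3.07%) were placed that way. Of the 148 lower with shS100A10_5, 140 had both shS100A10_5 arrays below the controls, 78 had both shS100A10_1 arrays above them, and 70 lay on opposite sides (477 of all probe sets, 2.81%). Probe sets chosen for a large difference between the hairpins tend to be placed so, and these counts carry no test.

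The circadian clock works as a loop in which the activators BMAL1 and CLOCK bind E-boxes and switch on PER, CRY and NR1D genes, whose proteins then repress the activators or their genes. Of 18 measured clock genes, 4 were higher with shS100A10_5 and 0 lower by limma. At an unadjusted p under 0.05 there were 9 positive and 0 negative differences. Of all probe sets, 0.843% were higher and 0.872% lower by limma, and 8.99% and 8.74% at an unadjusted p under 0.05. Counts of the other lists are to be read beside these shares. The median difference of the clock genes was 0.49 against 0.02 over all probe sets. NR1D1, which encodes the heme-binding repressor REV-ERB alpha, read 352 and 372 with shS100A10_1, 1356 and 1537 with shS100A10_5, and 288 and 300 in the controls (1.997, SE 0.19; limma, adjusted p = 0.00223). Its shS100A10_5 arrays stood alone, far above both other groups. BHLHE41, the repressor DEC2, read 137 and 164 against 446 and 451, with controls at 194 and 196 (1.58, SE 0.19; limma, adjusted p = 0.00789). PER3, a period protein, read 408 and 421 against 962 and 921, with controls at 546 and 526 (1.18, SE 0.19; limma, adjusted p = 0.0188). CIART, a repressor of CLOCK and BMAL1, read 47.3 and 50.3 against 93.5 and 117, with controls at 49.9 and 66.0 (1.10, SE 0.20; limma, adjusted p = 0.0300). In all 4 the shS100A10_5 arrays lay above those of both other groups. PER2 (0.83; limma, adjusted p = 0.105), NR1D2 (0.59, adjusted p = 0.160) and CLOCK (0.46, adjusted p = 0.315) did not pass, and BMAL1 differed by 0.07 and CRY1 by 0.00. The median over the clock genes, taken as the deviation from each gene's mean over the 4 arrays, was -0.35 and -0.141 with shS100A10_1 and 0.192 and 0.179 with shS100A10_5. The clock median without 1 array ran from 0.35 to 0.61; in the fit of 4 arrays NR1D1 alone passed without shS100A10_5 replicate 1, and 0 of the 18 by limma without its replicate 2. With all 6 arrays in the fit 4 passed without replicate 1 and 1, NR1D1, without replicate 2. The labels do not give the hour at which cells were harvested.

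Promoters of CIART, BHLHE41 and PER3 are shown because, of the 4 clock genes past the threshold, these held an E-box or a D-box. Neither was found in the sequence of NR1D1. RefSeq sequences of GRCh38.p14, 250 bases before and 50 bases after the transcription start, were searched on both strands for 10 motifs, and 54 of 68 named genes past the threshold had such a sequence. The E-box CACGTG, in capitals, was found at -129, -71 and -57 from the start of CIART (chr1:150282304-150282603, plus strand) and at -48 in BHLHE41 (chr12:26124988-26125287, minus strand). The D-box TTATGTAA, read by DBP, TEF, HLF and NFIL3, was found at -177 from a start of PER3 (chr1:7784041-7784340, plus strand). Each position is that of the first base of the match.
CIART: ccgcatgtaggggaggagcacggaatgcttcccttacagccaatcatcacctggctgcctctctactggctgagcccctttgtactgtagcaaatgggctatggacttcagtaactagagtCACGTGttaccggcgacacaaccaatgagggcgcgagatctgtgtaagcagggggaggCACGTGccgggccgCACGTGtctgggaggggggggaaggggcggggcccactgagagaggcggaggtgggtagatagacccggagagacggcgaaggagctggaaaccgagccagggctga
BHLHE41: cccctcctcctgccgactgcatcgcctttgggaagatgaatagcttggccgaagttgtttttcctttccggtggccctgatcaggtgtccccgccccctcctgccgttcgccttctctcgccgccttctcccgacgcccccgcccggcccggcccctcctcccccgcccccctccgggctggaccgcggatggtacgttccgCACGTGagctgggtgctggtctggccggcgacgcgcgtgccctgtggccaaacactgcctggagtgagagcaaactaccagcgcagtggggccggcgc
PER3: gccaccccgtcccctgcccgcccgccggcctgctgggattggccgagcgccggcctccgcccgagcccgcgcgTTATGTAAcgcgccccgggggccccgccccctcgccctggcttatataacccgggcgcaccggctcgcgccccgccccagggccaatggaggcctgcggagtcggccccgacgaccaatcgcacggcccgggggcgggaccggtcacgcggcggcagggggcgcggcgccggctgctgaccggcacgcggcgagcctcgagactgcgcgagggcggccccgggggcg
The E-box was in the promoters of 5 of 17 clock genes with a sequence and in 11.1% of 12728 genes with a sequence and a probe set. The D-box was in 2 of the 17 and in 0.888% of all. Among called genes with a sequence, the E-box was in 13.4% of those higher with shS100A10_5 and 7.27% of those lower. The D-box was in 2 of 112 higher and 0 of 110 lower. Each match is a description of the sequence.

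**Figure D3:**
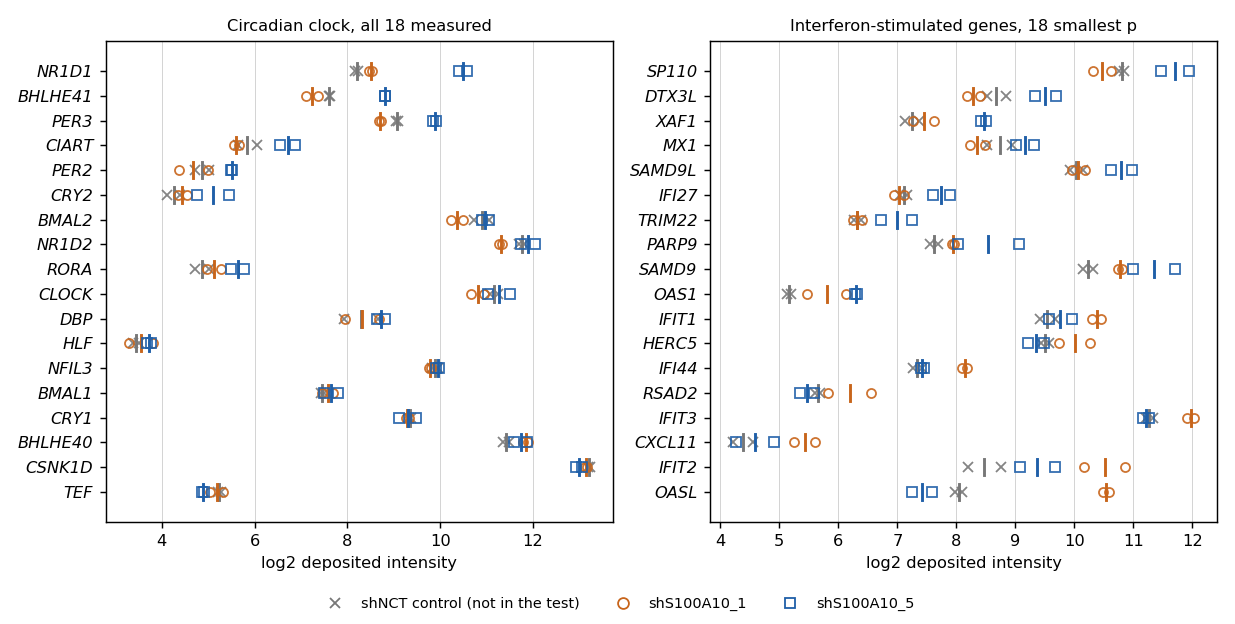
Log2 deposited intensity on each array for all 18 measured clock genes (left) and the 18 interferon-stimulated genes with the smallest p (right); circles are shS100A10_1, squares shS100A10_5, crosses the control, and vertical bars group means. NR1D1, BHLHE41, PER3 and CIART lie to the right with shS100A10_5, while the interferon genes split, with SP110, DTX3L and XAF1 to the right and OASL to the left.

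Immediate early genes, which growth factors and stress induce within minutes, were read from a list of 27 measured members, of which 4 were higher and 0 lower with shS100A10_5 (median difference 0.17). EGR1, a zinc finger factor induced through serum response elements, read 6501 and 7157 with shS100A10_1 and 20114 and 33650 with shS100A10_5, with controls at 11241 and 11936 (1.93, SE 0.25; limma, adjusted p = 0.00855). Its control arrays lay between the hairpins, and the shS100A10_5 replicates differed from each other more than those of the other groups. ATF3, a stress-induced factor, read 109 and 95.4 against 386 and 313, with controls at 139 and 121 (1.77, SE 0.20; limma, adjusted p = 0.00666). KLF10, an early target of TGF-beta (1.18), and JUNB, an AP-1 subunit (0.89), also passed, with limma adjusted p of 0.0233 and 0.0483. FOS did not pass (1.08; limma, adjusted p = 0.0686), and the AP-1 members JUN (-0.43, adjusted p = 0.277) and FOSL1 (-0.40, adjusted p = 0.308) had negative differences. JUNB was lost with quantile normalization, with median centring and without any 1 array. In the fit of 4 arrays EGR1 alone of the 27 passed without shS100A10_5 replicate 1 and none without its replicate 2. With all 6 arrays in the fit these counts were 4 and 0. The promoter of EGR1 is shown because it holds 2 CArG boxes, the elements that serum response factor binds, in capitals at -105 and -83 (chr5:138465229-138465528, plus strand). A CArG box was in 2 of 20 promoters of this list and in 1.68% of all. Among called genes with a sequence it was in 5 of 112 higher with shS100A10_5 and 1 of 110 lower.
EGR1: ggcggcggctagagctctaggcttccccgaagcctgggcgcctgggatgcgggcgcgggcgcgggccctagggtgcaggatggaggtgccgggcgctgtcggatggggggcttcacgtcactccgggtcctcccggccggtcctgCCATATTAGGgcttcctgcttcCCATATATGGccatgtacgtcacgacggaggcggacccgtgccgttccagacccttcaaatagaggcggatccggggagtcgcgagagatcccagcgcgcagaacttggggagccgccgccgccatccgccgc

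Among helix-loop-helix repressors, the ID proteins block differentiation factors by pairing with them without binding DNA, and the HES proteins carry the Notch signal. Of 19 measured genes of the ID, HES and Notch list, 3 were higher and 0 lower with shS100A10_5, 17 had a positive difference, and the median was 0.20. ID2 read 25.6 and 28.6 with shS100A10_1 and 105 and 102 with shS100A10_5, with controls at 30.4 and 30.2 (1.93, SE 0.19; limma, adjusted p = 0.00247). ID3 read 436 and 316 against 1130 and 919, with controls at 417 and 542 (1.46, SE 0.22; limma, adjusted p = 0.0167). HES1 read 885 and 847 against 1803 and 1814, with controls at 838 and 565 (1.06, SE 0.19; limma, adjusted p = 0.0267). In all 3 the shS100A10_5 arrays stood above both other groups, while ID1 differed by 0.04. With either shS100A10_5 array left out of the fit of 4, none of the 3 passed.

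Stress programmes followed through their target genes gave few calls, all higher with shS100A10_5. Of 26 measured genes of the integrated stress response, which ATF4 drives when translation is restrained, 3 were higher and 0 lower (median 0.26): ATF3, the chromatin protein gene NUPR1 (608 and 485 against 1478 and 1536; 1.47, limma adjusted p = 0.0101) and SLC7A11, the cystine transporter (6868 and 8182 against 14808 and 19352; 1.18, limma adjusted p = 0.0294). Control arrays were at 599 and 505 for NUPR1 and at 7020 and 6924 for SLC7A11, at the level of shS100A10_1. DDIT3 (0.27; limma, adjusted p = 0.564), ASNS (0.30, adjusted p = 0.467) and TRIB3 (0.63, adjusted p = 0.163), standard members of that response, did not pass. Of 26 targets of NRF2, the factor that answers oxidative stress, 4 were higher and 0 lower (median 0.13): SLC7A11, the efflux transporter ABCC3 (1.03), malic enzyme ME1 (1.00) and GCLM, a subunit of the enzyme that starts glutathione synthesis (0.92), with limma adjusted p between 0.0294 and 0.0448. SQSTM1, the autophagy receptor p62, was higher as well (0.90; limma, adjusted p = 0.0483), while HMOX1 (0.54, adjusted p = 0.252) and NQO1 (0.45, adjusted p = 0.245) did not pass. With quantile normalization 1 of the 26 NRF2 targets passed. The call of SQSTM1 was lost with quantile normalization and with median centring. The NRF2 median was 0.07 without shS100A10_1 replicate 1 and 0.35 without shS100A10_5 replicate 2, and with either shS100A10_5 array left out of the fit of 4 none of these stress genes passed.

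Interferon-stimulated genes differed in both directions. Of 39 measured, 3 were higher and 1 lower with shS100A10_5, and the median was 0.07. At an unadjusted p under 0.05 there were 8 positive and 8 negative differences, beside 8.99% and 8.74% of all probe sets. The 3 that were higher were SP110, a nuclear body protein (1273 and 1571 against 2824 and 3944, controls 1842 and 1738; 1.24), DTX3L, a ubiquitin ligase that works with PARP9 (291 and 337 against 643 and 826, controls 365 and 458; 1.22), and XAF1, an antagonist of the apoptosis inhibitor XIAP (198 and 154 against 344 and 365, controls 140 and 166; 1.02). Their limma adjusted p were 0.0300, 0.0239 and 0.0393. The call of XAF1 was lost with quantile normalization. OASL, described above, was the gene that was lower. IFIT2 (1147 and 1865 against 539 and 818, controls 431 and 295; -1.14, limma adjusted p = 0.0727), IFIT3 (-0.76, adjusted p = 0.0750) and MX1 (0.81, adjusted p = 0.0824), effectors of the same response, did not pass and differed in sign. Of the sensors of double-stranded RNA that start the response, 0 of 11 passed by limma, with 3 positive and 2 negative differences at an unadjusted p under 0.05; TLR3 had a difference of 0.78 (interval 0.37 to 1.20) and RIGI of -0.81 (-1.29 to -0.33). Of 12 factors between interferon receptors and these genes 0 passed, with 1 positive and 1 negative differences at an unadjusted p under 0.05. The counts of the 12 factors were near the shares of all probe sets. Those of the 11 sensors, a short list, were above them. Without shS100A10_5 replicate 1 OASL alone of the interferon list passed, and without replicate 2 it was 0 in the fit of 4 arrays.

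The promoter of DTX3L is shown because it holds an interferon-stimulated response element. The element, a GAAA repeated after 2 bases and in capitals, starts at -6 (chr3:122564088-122564387, plus strand). It was in 24 of 32 promoters of the interferon list and in 3.92% of all. Among called genes with a sequence it was in 4.46% of those higher with shS100A10_5 and 3.64% of those lower.
DTX3L: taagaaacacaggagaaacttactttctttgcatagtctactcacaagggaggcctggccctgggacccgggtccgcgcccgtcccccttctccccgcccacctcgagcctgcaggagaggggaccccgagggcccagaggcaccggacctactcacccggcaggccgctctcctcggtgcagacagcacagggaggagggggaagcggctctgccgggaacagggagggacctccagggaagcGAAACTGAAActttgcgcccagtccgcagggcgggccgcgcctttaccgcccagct

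Genes of immune signalling outside that list had single calls, all lower with shS100A10_5. HLA-E, the class I molecule that natural killer cells read through NKG2A, was 6989 and 6788 with shS100A10_1 and 3444 and 3357 with shS100A10_5, with controls at 4745 and 5714 (-1.02, SE 0.19; limma, adjusted p = 0.0304). It was the only one of 15 measured genes of class I antigen presentation to pass, and B2M differed by 0.07. CXCL1, a neutrophil chemokine, read 122 and 159 against 59.4 and 67.2, with controls at 79.8 and 66.8 (-1.14, SE 0.21; limma, adjusted p = 0.0304), and was the 1 call among 25 NF-kB targets and cytokines. TNFSF15 was the 1 call among 19 measured ligands and receptors of the tumour necrosis factor family. In HLA-E, CXCL1 and TNFSF15 both shS100A10_5 arrays lay below both shS100A10_1 arrays, which was so for 23.4% of all probe sets.

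In the cell cycle, CDKN1A was the largest difference and was joined by cyclin D2, CCND2 (242 and 208 with shS100A10_1 against 414 and 507 with shS100A10_5; 1.03, limma adjusted p = 0.0376), as the 2 calls among 16 cell cycle inhibitors, RB family genes and G1 cyclins. The call of CCND2 was lost with quantile normalization. CDKN1B (-0.47, limma adjusted p = 0.272) and CDKN1C (-0.05, limma adjusted p = 0.922), the other inhibitors of the family of CDKN1A, did not pass. Of 22 measured p53 targets 1 was lower, CDKN1A, and 1 higher, GDF15, a stress cytokine (1.20; limma, adjusted p = 0.0263), while MDM2, a standard p53 target, differed by 0.08 (adjusted p = 0.896); the list's median was -0.04.

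Genes of DNA replication had a median of -0.40 over 44 measured members, with 38 negative and 6 positive differences. By limma 2 were lower and 0 higher, and at an unadjusted p under 0.05 18 were lower and 2 higher, against 8.74% and 8.99% of all probe sets. LIG1, the ligase that joins Okazaki fragments, read 208 and 315 with shS100A10_1 and 130 and 102 with shS100A10_5, with controls at 283 and 359 (-1.16, SE 0.24; limma, adjusted p = 0.0457). E2F1, the factor that drives S phase genes, read 1666 and 1697 against 984 and 691, with controls at 2019 and 2199 (-1.03, SE 0.22; limma, adjusted p = 0.0476). In both the shS100A10_5 arrays were the lowest of the 6, and both calls were lost with quantile normalization, with median centring and with either shS100A10_5 array left out of the fit of 4, LIG1 also without shS100A10_1 replicate 2 and E2F1 without either shS100A10_1 array. With all 6 arrays in the fit, E2F1 passed and LIG1 did not without shS100A10_5 replicate 1, and neither passed without its replicate 2. The helicase subunit MCM5 (-1.02; limma, adjusted p = 0.0719) and thymidylate synthase TYMS (-0.74, adjusted p = 0.0875) did not pass. The list's median deviation was 0.168 and 0.237 on the shS100A10_1 arrays and -0.155 and -0.195 on the shS100A10_5 arrays, so both replicates lay on the same side, and without 1 array the median difference ran from -0.43 to -0.34. Among mitotic genes 0 of 35 passed by limma, 1 positive and 4 negative differences had an unadjusted p under 0.05, and the median was -0.02. The promoter of E2F1 is shown because E2F1 is a target of its own family. It holds the E2F form TTTGGCGC, in capitals, at -20 (chr20:33686336-33686635, minus strand). This form was in 9 of 37 promoters of the replication list and in 1.08% of all, and the form TTTCCCGC in 10 of 37 and 2.75%. Among called genes with a sequence, TTTGGCGC was in 0 of 112 higher with shS100A10_5 and 1 of 110 lower. The form TTTCCCGC was in 0 of 112 and 5 of 110.
E2F1: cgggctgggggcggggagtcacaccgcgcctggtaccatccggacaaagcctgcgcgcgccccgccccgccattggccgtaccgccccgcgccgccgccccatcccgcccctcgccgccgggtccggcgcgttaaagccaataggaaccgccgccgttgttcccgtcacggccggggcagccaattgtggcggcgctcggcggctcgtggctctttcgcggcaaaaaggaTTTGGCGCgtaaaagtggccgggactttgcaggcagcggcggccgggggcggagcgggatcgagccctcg

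Replication-dependent histone genes had a median of -0.28 over 48 measured members, with 1 lower, H2AC21 (-1.84, SE 0.25; limma, adjusted p = 0.00963), and 1 higher, H2BC17 (0.94, SE 0.19; limma, adjusted p = 0.0389). Copies of these genes are nearly identical, so probes may share signal between them and the identity of each is uncertain. The call of H2BC17 was lost with quantile normalization. The list's median deviation was 0.276 and -0.01 with shS100A10_1 and -0.02 and -0.237 with shS100A10_5, so shS100A10_1 replicate 2 and shS100A10_5 replicate 1 were level. Without shS100A10_5 replicate 2 the median difference was -0.13, and without shS100A10_1 replicate 1 it was -0.16.

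**Figure D4:**
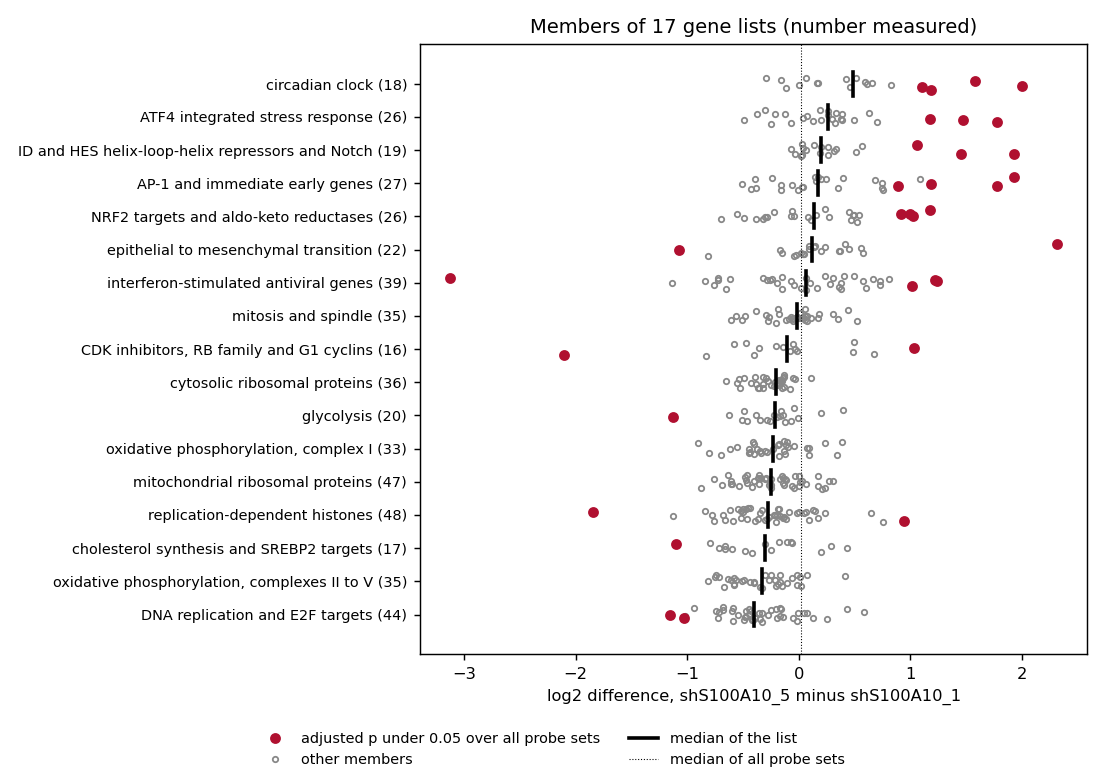
Log2 difference of shS100A10_5 minus shS100A10_1 for every measured member of 17 gene lists; filled red points passed the threshold over all probe sets, black bars are list medians and the dotted line is the median of all probe sets, 0.02. Clock genes have a median of 0.49 and DNA replication genes one of -0.40.

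Metabolic genes had few calls. Of 12 measured genes of fatty acid synthesis 2 were lower, FASN and ACSS2, and 1 was higher, ME1 (1.00), with a median of -0.13. FASN, the fatty acid synthase, read 1884 and 2036 with shS100A10_1 and 1053 and 1075 with shS100A10_5, with controls at 1826 and 2133 (-0.88, SE 0.19; limma, adjusted p = 0.0483). ACSS2, which makes acetyl-CoA from acetate, read 304 and 347 against 176 and 148, with controls at 277 and 351 (-1.01, SE 0.20; limma, adjusted p = 0.0375). Mevalonate kinase, MVK, read 751 and 589 against 374 and 257, with controls at 623 and 806 (-1.10, SE 0.23; limma, adjusted p = 0.0487), and was the 1 call among 17 cholesterol synthesis genes, whose median was -0.30. The glycolytic kinase PFKL (-1.13, SE 0.23; limma, adjusted p = 0.0441) was the 1 call among 20 glycolysis genes with a median of -0.21. At an unadjusted p under 0.05, 8 cholesterol and 5 glycolysis genes were lower and 0 higher. Fatty acid synthesis had 5 lower and 1 higher, beside 8.74% and 8.99% of all probe sets. The cholesterol list's median deviation was 0.207 and 0.0664 with shS100A10_1 and -0.183 and -0.271 with shS100A10_5. In FASN, ACSS2 and MVK the shS100A10_1 arrays were at the control level and the shS100A10_5 arrays below it. The calls of FASN, MVK and PFKL were lost with quantile normalization and with median centring, and those of ACSS2 and ME1 with quantile normalization. With either shS100A10_5 array left out of the fit of 4, none of these 5 passed.

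Lists of the respiratory chain and ribosomes had negative medians with no calls, and replicate 2 of shS100A10_5 made most of the shift. Complex I (33 measured) had a median of -0.23, complexes II to V (35) -0.33, mitochondrial ribosomal proteins (47) -0.25 and cytosolic ribosomal proteins (36) -0.21. By limma 0 of these passed, with 6, 12, 11 and 3 negative and 0, 1, 0 and 0 positive differences at an unadjusted p under 0.05. Of all probe sets, 8.74% were lower and 8.99% higher at that p, and the 3 of 36 cytosolic ribosomal genes were near that share. The complex I median deviation was 0.119 on shS100A10_5 replicate 1, above the 0.03 of shS100A10_1 replicate 2, and -0.317 on shS100A10_5 replicate 2. Without replicate 2 of shS100A10_5 the 4 medians were -0.02, -0.14, -0.10 and -0.10, and without its replicate 1 they were -0.43, -0.51, -0.39 and -0.34.

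**Figure D5:**
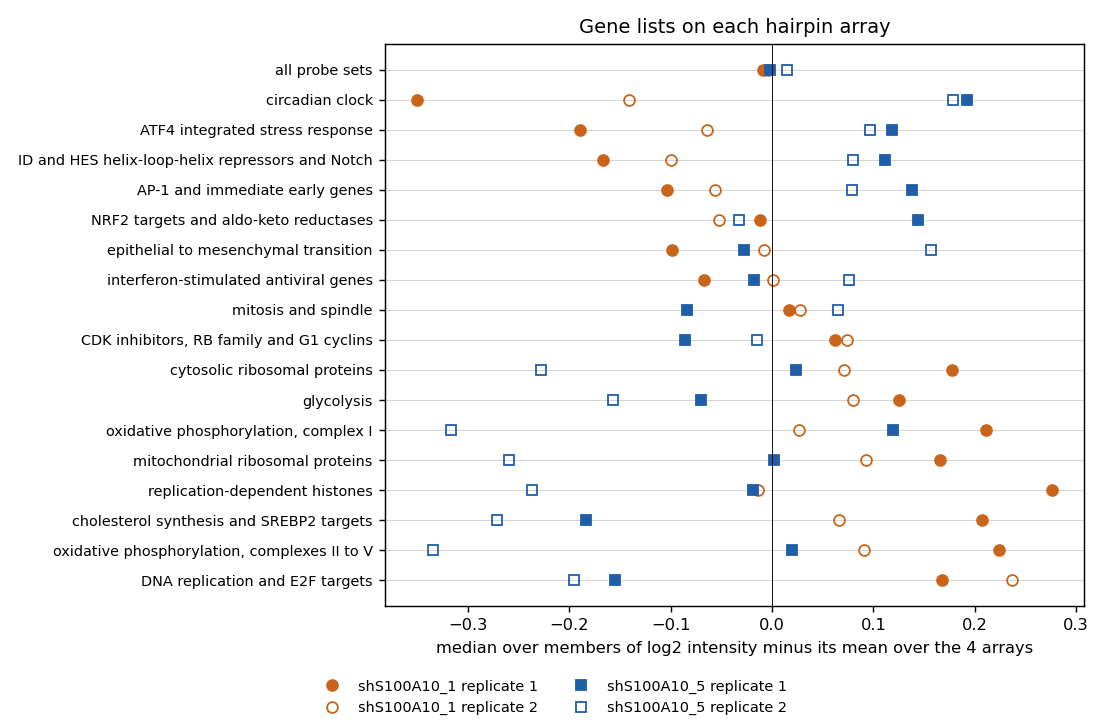
Median over list members of the log2 intensity minus each gene's mean over the 4 arrays, 1 point per array; circles are shS100A10_1 and squares shS100A10_5, filled for replicate 1 and open for replicate 2. The hairpins separate for clock (-0.35 and -0.141 against 0.192 and 0.179) and replication genes, while for complex I only replicate 2 of shS100A10_5 lies below 0.

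Annexin A2 and p11 act on plasminogen, and the genes of that system were read for this reason. PLAU, the urokinase that cleaves plasminogen to plasmin, read 19559 and 18411 with shS100A10_1 and 9132 and 8337 with shS100A10_5, with controls at 12531 and 12739 (-1.12, SE 0.19; limma, adjusted p = 0.0235). The controls lay between the hairpins without overlap. It was the 1 call among 10 measured genes of the plasminogen system, and its receptor PLAUR differed by 0.24 (limma, adjusted p = 0.666). MMP1, the interstitial collagenase, read 12039 and 13503 against 5884 and 6749, with controls at 5996 and 6506 (-1.02, SE 0.19; limma, adjusted p = 0.0346), so that shS100A10_1 alone stood apart, and it was the 1 call among 24 metalloproteinases and their inhibitors. Of 17 measured genes of the S100 list only S100A10 passed. Of 15 partners and cargo proteins of p11 0 passed by limma. At an unadjusted p under 0.05 these had 3 positive and 3 negative differences, beside 8.99% and 8.74% of all probe sets. The annexin ANXA10 was lower (746 and 751 against 350 and 266, controls 596 and 451; -1.30, SE 0.21; limma, adjusted p = 0.0192), the 1 call among 12 annexins.

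Beside SNAI1, genes that mark or drive the mesenchymal state had few calls. Of 22 measured genes of that list 1 was higher, SNAI1, and 1 lower, the hemidesmosome integrin ITGB4 (359 and 326 against 174 and 151, controls 234 and 199; -1.08, SE 0.19; limma, adjusted p = 0.0290). SNAI2 (0.37; limma, adjusted p = 0.382), ZEB1 (0.09, adjusted p = 0.888), VIM (-0.17, adjusted p = 0.695) and CDH1 (0.36, adjusted p = 0.397) did not pass. Growth factor pathways had opposite single calls: INHBA, an activin subunit, was higher (1.13) and PMEPA1, a TGF-beta target that restrains the pathway, lower (-1.04), while the ERK antagonist SPRY2 (-0.90) and the Wnt receptor FZD7 (-0.96) were lower. NDRG1, a hypoxia and differentiation gene (1.14), was higher, and the efflux pump ABCG2 (-1.02) and the luminal factor SPDEF (-1.03) were lower. The limma adjusted p of these 7 genes lay between 0.0233 and 0.0459. The calls of SPRY2, FZD7, ABCG2 and SPDEF were lost with quantile normalization, and that of SPRY2 also with median centring. Of 8 measured genes of the list of TXNIP and arrestin-domain genes, ARRDC4 and the zinc finger gene KLF10 passed, and TXNIP itself had 0.67 (limma, adjusted p = 0.108).

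The silencing machinery itself gave no call: 0 of 14 measured genes of the RNA interference pathway passed by limma. At an unadjusted p under 0.05 there were 1 positive and 2 negative differences, beside 8.99% and 8.74% of all probe sets. AGO3 had a difference of 0.72 (interval 0.30 to 1.15; limma, adjusted p = 0.0920) and AGO4 of -0.48 (-0.91 to -0.06; adjusted p = 0.224). Over the 55 lists, 1071 genes were measured, of which 31 were higher and 22 lower, beside 0.843% and 0.872% of all probe sets. The lists were chosen with earlier results of these data known, so a larger share in them carries no test.

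The difference between the hairpins also followed the length of genes in the genome. Spearman's rho between the difference and the gene's span in RefSeq was 0.192 across 15669 genes, which share arrays and are not independent. In 4 bins of span from short to long, the median difference was -0.06, -0.02, 0.05 and 0.10. Called genes that were higher had a median span of 43.5 kb and those lower 16.9 kb. The relation was present with each array left out, from 0.0944 with shS100A10_5 replicate 1 alone to 0.238 with its replicate 2 alone. With this trend removed from each array, an alternative chosen after seeing the data, 233 of 15674 probe sets with a symbol passed. Of the 270 calls with a symbol, 221 still passed, and 9 of the 68 named genes past the threshold lost their call. The part of the trend in single genes was not tested otherwise.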

How the data were processed

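RNA from MDA-MB-231 cells was read on GeneChip arrays with biotin labelling, per the labels. The authors deposited linear, normalized intensity values, which they obtained from Transcriptome Analysis Console, per the submitters' processing notes; the version and the way background, summarization and normalization were handled were not given in the sources used here. No detection calls, scan dates or batches come with these values. The log2 of each deposited value was used, with no other scaling. Probe sets were named through the platform annotation: 15674 had 1 symbol, 0 several and 1291 none, and all 15674 matched RefSeq by gene identifier.

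A mean per hairpin was fitted to the 4 hairpin arrays by lmFit and eBayes of limma 3.58.1 (R 4.3.3; 2 residual and 8.14 prior degrees of freedom), tested in both directions, with Benjamini-Hochberg adjustment over all 16965 probe sets and a threshold of 0.05. The fit was tested on simulated data, drawn as independent arrays from the variance model of the same fit. Such data hold no uneven replicate and no gene span trend, so they cannot show how the fit handles these. Lists used 1 probe set per gene, the brightest, and were described by counts and medians with no set test.

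The members and the 55 gene lists were chosen with earlier results of these data known. Named genes were S100A10, ANXA2, the 15 genes highest and the 15 lowest in difference, past the threshold and with hairpin arrays that did not overlap, every list member past the threshold, and the 2 smallest p of a list without one; other genes named were chosen after their values were seen, as standard members of a list. Symbols of small RNAs and uncharacterized loci were not named. Alternatives were other normalizations, offsets, filters, variance models, thresholds, a replicate block and leaving out each array.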

Additional observations from a re-analysis of the deposited data

How the results depend on the processing

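All 291 probe sets past the threshold kept their sign under every alternative in which they were tested, while their number varied. Where the hairpin arrays did not overlap, a left-out array, another variance model or another threshold could not change the sign. All 6 arrays in the fit gave 494 (243 higher, 251 lower). Quantile normalization gave 171 (91 higher, 80 lower, 35 list genes), median centring 224, and an offset of 16 before log2 368. Of the 68 named genes past the threshold, 18 lost their call with quantile normalization and 9 with median centring. Probe sets with a mean log2 level above 6 gave 588 (271 higher, 317 lower; 83 list genes) of 10959 tested. An intensity trend gave 666 (320 higher, 346 lower; 97 list genes). An adjusted p under 0.01 left 36 (23 higher, 13 lower; 15 list genes), and one under 0.10 gave 746 (372 higher, 374 lower; 95 list genes), against 53 list genes in the fit reported. Robust hyperparameters, array weights, 1 probe set per gene and the removed gene span trend gave between 233 and 289. Why the counts differ was not tested.

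Without 1 array the count ran from 0 to 362 in the fit of 4 arrays and from 7 to 656 in that of all 6 (overall 0 to 656, 0 to 313 higher, 0 to 343 lower, and 0 to 76 list genes). Of the 68 named genes past the threshold, 10 passed in 3 of the 4 fits of 4 arrays that left out 1 array. Without shS100A10_5 replicate 2, 0 passed by limma in that fit and 7 in the fit of all 6. With the replicate number as a block, 1826 passed (922 higher, 904 lower; 191 list genes), with 1 residual degree of freedom. The deviations of same-numbered arrays correlated at 0.188 over probe sets, from 2 pairs only, and the labels do not say that a number marks a shared culture or day. No detection calls were given, so the dimmest probe sets, such as LCTL and CD180, may lie near background.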
